A study of Mus musculus with 12 samples.

Results

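The mitochondrial genome of the mouse carries 37 genes, and all 37 were found by their names beginning with mt- among the 53465 genes of the deposited table. They are 13 protein genes, 2 rRNA genes and 22 tRNA genes. Of these, 34 genes had enough counts to be tested among 16101 genes, and mt-Tf, mt-Ts1 and mt-Ts2 did not. RNA was sequenced from the left ventricles of 12 mice, 3 in each of 4 groups, with 1 library per mouse. All mice carried floxed Adam17 alleles (ADAM17flox/flox, here A17fl/fl) on a C57BL/6J background, and in their A17α-MHCKO littermates a Cre recombinase under the α-myosin heavy chain promoter removed exon 2 of Adam17 in cardiomyocytes and not in other cells. Mice of each genotype received intraperitoneal doxorubicin (DOX), 5 mg/kg on days 0, 7, 14 and 21 for a total of 20 mg/kg, or an equal volume of normal saline (NS), and were killed 4 weeks after the last injection. All were males, 8 weeks old when taken into the experiment. The 4 groups hold no mice with Cre and unfloxed Adam17.

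The mitochondrial genome is transcribed from both strands into long precursor RNAs, and in most places tRNAs lie between the larger genes and are cut out to release the mRNAs and rRNAs. The mRNAs encode core subunits of respiratory complexes I, III and IV and of ATP synthase (complex V), whose other subunits are encoded in the nucleus. The rRNAs form the mitochondrial ribosome that translates only these mRNAs. The heart is among the tissues richest in mitochondria, and doxorubicin is known to accumulate in them.

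Total counts per library lay between 15950717 and 21725076. Adam17 was lower in A17α-MHCKO mice, at 27.9 to 36.8 CPM (counts per library scaled to a common size, with TMM factors) in their 6 libraries and 43.6 to 70.9 CPM in the 6 A17fl/fl libraries. All 12 ventricular cardiomyocyte markers (among them Myh6, Myl2 and Tnnt2) were above 1 CPM in every library. The library of A17fl/fl + NS replicate 1 stood apart, at -97.5 on the first principal component where the others lay between -1.13 and 18.2. Its 5 neutrophil markers summed to 2211 CPM, against 5.21 to 65.0 CPM in the others, and its cardiomyocyte markers summed to 21299 CPM, against 32225 to 53643 CPM. It also had the lowest mitochondrial share, and counts of genes at an unadjusted p that involve it are given below also without it. In heart tissue, fewer cardiomyocytes and less mitochondrial RNA per cardiomyocyte cannot be told apart.

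The most abundant mitochondrial mRNA per length was mt-Co1, the catalytic subunit of complex IV, with a median of 54367 FPKM over the 12 libraries and a range of 46999 to 64526 FPKM. It exceeded mt-Cytb, the only mitochondrially encoded subunit of complex III, in all 12 libraries, and mt-Cytb had a median of 21202 FPKM. Next came mt-Nd1 of complex I and mt-Co3 of complex IV with medians of 19348 and 19321 FPKM, and these did not differ in order, since mt-Nd1 was higher in 6 of 12 libraries. The next mRNAs were mt-Co2 (16831 FPKM), mt-Nd4 (10643 FPKM), mt-Nd2 (9408 FPKM) and mt-Nd5 (7867 FPKM), and among these 4 each lay above the one that follows in at least 11 of 12 libraries. Medians of mt-Atp8 and mt-Nd4l were 7143 and 7095 FPKM, and the order of these neighbours changed from library to library, with mt-Atp8 higher in 5 of 12. Then followed mt-Nd6, the only mRNA encoded on the other strand, at 6258 FPKM, mt-Nd3 at 3832 FPKM and mt-Atp6 at 3247 FPKM. The rRNAs ranked last of these 15 genes, with medians of 2172 FPKM for mt-Rnr2 of the large ribosomal subunit and 1444 FPKM for mt-Rnr1 of the small subunit. The libraries were made with an mRNA kit, so these values do not measure the rRNAs and tRNAs as total RNA would. The tRNA genes are 59 to 75 bases long. Counts on them do not tell tRNAs already cut out from those still within longer precursor RNAs.

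**Figure D1:**
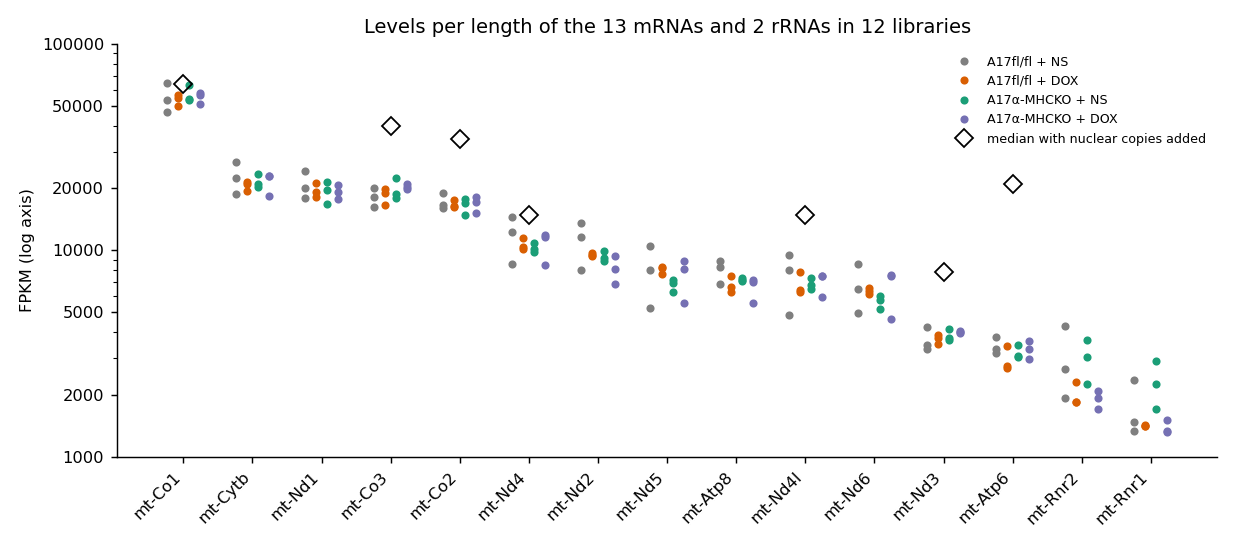
Level per length (FPKM, log axis) of the 13 mRNAs and 2 rRNAs in each of the 12 libraries, coloured by group, with open diamonds for the median after the counts of nuclear copies were added to the member each matches. mt-Co1 lies highest at a median of 54367 FPKM, and mt-Atp6 moves most when its copy is added, from 3247 to 20947 FPKM.

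The low place of mt-Atp6 depended on how fragments were assigned between near-identical sequences. The nuclear genome holds copies of mitochondrial DNA, and 11 annotated pseudogenes with at least 100 mean counts matched 9 members over 100 bases or more at 90% identity or higher. Of these, 7 lie together on chromosome 1, and 5 had no mismatch in the aligned stretch. Gm10925 (GRCm38 chr1:24613974-24614651, minus strand) matches 678 of the 681 bases of mt-Atp6 without a mismatch. It held 199047 counts per library on average, against 37024 for mt-Atp6, and took between 83.1% and 85.2% of their sum in every library. With the counts of all copies added to the members they match, mt-Atp6 went from rank 13 to rank 5 of the 15 genes, mt-Co3 from 4 to 2, mt-Co2 from 5 to 3 and mt-Nd4l from 10 to 8. In the same ranking mt-Cytb went from 2 to 4, mt-Nd1 from 3 to 6 and mt-Atp8 from 9 to 12, while mt-Co1 stayed first and the rRNAs last. For mt-Co3, mt-Co2, mt-Nd4l and mt-Nd3 the copies held between 49.2% and 53.7% of the joint counts in every library, and for mt-Nd4 27.2% to 29.4%. Fragments of identical sequence cannot be assigned to one place, so the levels of these members and of mt-Co1 are uncertain to this extent, while mt-Cytb, mt-Nd1, mt-Nd6, mt-Atp8 and both rRNAs matched no copy of this kind.

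The mt-Co1 copies show why identity matters, and a stretch of 100 bases is printed here from the mitochondrial gene (GRCm38 chrM:6488-6587, plus strand), from Gm29216 (chr1:24615991-24616090, minus strand) and from Gm13340 (chr2:22588388-22588487, minus strand), with capitals at bases that differ from mt-Co1.
mt-Co1: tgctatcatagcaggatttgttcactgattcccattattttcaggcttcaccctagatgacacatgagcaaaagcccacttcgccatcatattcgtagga
Gm29216: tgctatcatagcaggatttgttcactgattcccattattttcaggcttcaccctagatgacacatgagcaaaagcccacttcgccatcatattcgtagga
Gm13340: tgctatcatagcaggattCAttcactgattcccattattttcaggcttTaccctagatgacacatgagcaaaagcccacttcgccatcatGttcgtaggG
Gm29216 had 0 differences in this stretch and 1 mismatch over its 483 aligned bases, and held 220146 counts on average against 1440249 for mt-Co1. Gm13340 had 5 differences here, matched all 1545 bases of mt-Co1 at 97.6% identity, and held 36935 counts. None of the 11 copies had an unadjusted p under 0.05 in any of the 5 contrasts by edgeR's quasi-likelihood test, with 0.0559 the smallest.

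Members also overlap each other on the mitochondrial genome. The start of mt-Atp6 (GRCm38 chrM:7927-8016, plus strand, first 90 bases) is shown because its first 43 bases, in capitals, also belong to the end of mt-Atp8, which is read in another frame.
mt-Atp6: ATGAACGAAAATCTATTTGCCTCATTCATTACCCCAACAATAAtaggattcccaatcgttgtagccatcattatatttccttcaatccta
Other overlaps were shorter, with 7 bases between mt-Nd4l and mt-Nd4 and 14 bases between mt-Nd5 and mt-Nd6 on opposite strands. Whether counting used the strand was not given in the sources used here, so fragments in the latter stretch cannot be told apart.

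The mitochondrial genes took between 17.9% and 25.9% of all counts of a library, and neither treatment nor genotype moved this share beyond the spread between mice. In A17fl/fl + NS mice the share was 17.9%, 21.3% and 25.9% in replicates 1 to 3, the widest spread of the 4 groups. It was 21.8%, 20.3% and 19.8% in A17fl/fl + DOX mice. It was 23.2%, 20.4% and 20.0% in A17α-MHCKO + NS mice. It was 18.5%, 22.3% and 21.7% in A17α-MHCKO + DOX mice, so the groups overlapped in every comparison. The means were 21.7% ± 4.02 (SD, n = 3), 20.6% ± 1.03, 21.2% ± 1.77 and 20.8% ± 2.01 in the same order. Doxorubicin went with a difference of -1.09 percentage points in A17fl/fl mice (pooled SD 2.94) and -0.352 points in A17α-MHCKO mice (pooled SD 1.89). Between the genotypes it differed by -0.528 points after saline (pooled SD 3.11) and 0.206 points after doxorubicin (pooled SD 1.6). The sign of the doxorubicin difference in A17fl/fl mice rested on single saline mice: it was -3.00 points without replicate 1 and 1.02 points without replicate 3 of A17fl/fl + NS. Counting error was far smaller than these differences, with Wilson 95% intervals at most 0.0411 points wide.

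**Figure D2:**
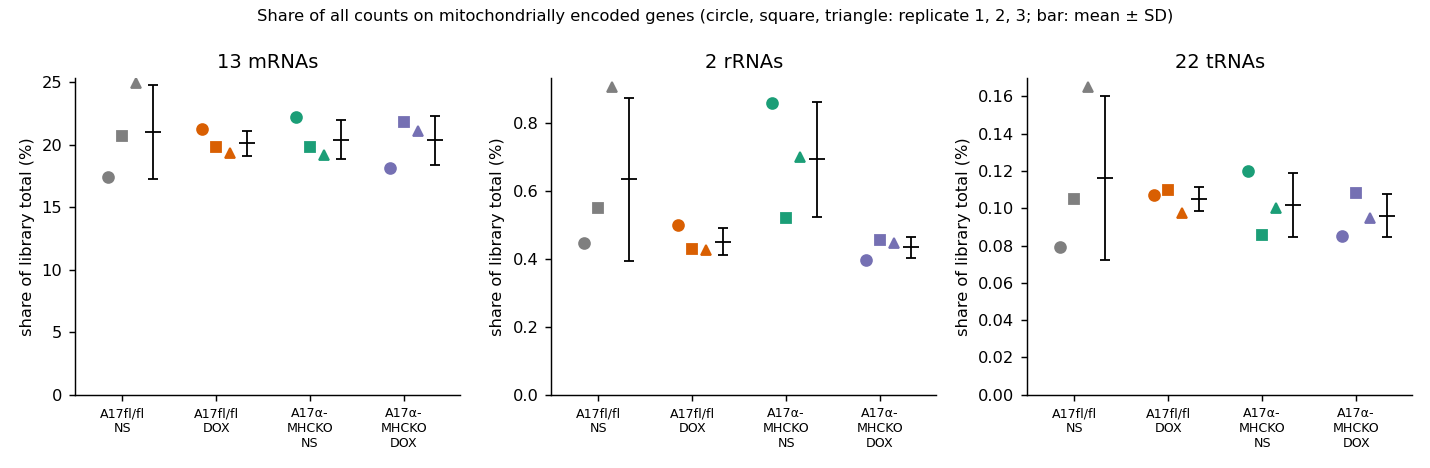
Percent of all counts of a library on the 13 mRNAs, the 2 rRNAs and the 22 tRNAs, by group, with 1 point per mouse and the mean ± SD of 3 mice beside it. The mRNA shares overlap between all groups, while the rRNA shares of A17α-MHCKO + DOX mice (0.397% to 0.456%) lie below those of A17α-MHCKO + NS mice (0.521% to 0.858%).

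Nearly all of this share came from the mRNAs, at 17.4% to 24.9% of all counts, with 0.397% to 0.905% on the rRNAs and 0.0792% to 0.165% on the tRNAs. mt-Co1 made up 39.8% to 43.8% of the 13-mRNA counts in the 12 libraries. It was 43.7%, 42.2% and 43.2% in A17α-MHCKO + NS mice and 41.8%, 39.8% and 40.1% in A17fl/fl + NS mice, higher without overlap in the former. mt-Nd2, a complex I subunit, was 3.93%, 4.48% and 4.0% in A17α-MHCKO + DOX mice and 4.76%, 4.95% and 5.13% in A17fl/fl + DOX mice, lower without overlap. mt-Atp8 was 0.726%, 0.687% and 0.666% in A17fl/fl + DOX mice and 0.805%, 0.817% and 0.728% in A17fl/fl + NS mice, where the groups were separated by 0.726% against 0.728%. mt-Co3 was 8.64%, 7.54% and 7.52% in A17α-MHCKO + DOX mice and 7.32%, 7.49% and 6.73% in A17fl/fl + DOX mice, higher without overlap. mt-Cytb was at most 12.1% in A17α-MHCKO + NS mice and 12.3%, 12.4% and 12.3% in A17fl/fl + NS mice, lower without overlap. These 5 were all the separations among the 13 mRNAs in the 4 comparisons, and with doxorubicin in A17α-MHCKO mice there was none. Of all genes tested, between 10.9% and 16.9% had CPM without overlap in these comparisons, which is another measure than a share of the 13. Such separations are thus common in the whole table. Leaving out a mouse cannot make separated groups overlap, so no such check was made of these separations. These shares of a sum have no test, and the next paragraphs give the tests of the single genes.

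After doxorubicin in A17fl/fl mice, no mitochondrial gene had an adjusted p under 0.05 by edgeR's quasi-likelihood test with Benjamini-Hochberg adjustment over all genes, which was also so for all 16101 genes (0%). DESeq2 likewise gave 0 members and 4 with an unadjusted p under 0.05, while it gave 151 genes of the table an adjusted p under 0.05. An unadjusted p under 0.05 occurred in 1816 of 16101 genes by DESeq2. All 13 mRNAs had negative log2 fold changes between -0.26 and -0.01, with a median of -0.12 beside -0.04 over all genes tested, and none had an unadjusted p under 0.05. The same median was 0.08 without A17fl/fl + NS replicate 3 and -0.32 without replicate 1, so its sign rested on 1 saline mouse. The lowest value among mRNAs was that of mt-Atp8, an ATP synthase subunit, at -0.26 ± 0.17 (SE), followed by mt-Atp6 and mt-Nd2 at -0.24 each. Unadjusted p under 0.05 occurred in 2 members, both lower, where 10.7% of all genes tested had it (6.58% lower, 4.11% higher). Both were also within the limits the study used (absolute log2 fold change over 1, unadjusted p under 0.05, mean FPKM over 1 in a group). Of the 11766 tested genes with such an FPKM, 454 met these limits (3.86%).

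Those 2 genes were mt-Ti and mt-Tq, the tRNAs for isoleucine and glutamine, which share 3 bases on opposite strands. mt-Ti was 35.7, 50.0 and 103 CPM after saline in A17fl/fl mice, against 34.3, 20.9 and 32.0 CPM in A17fl/fl + DOX mice. All treated mice lay below the saline mice, by a margin of 34.3 against 35.7 CPM, and mt-Ti was the 1 member without overlap, where 13.3% of genes had none (6.11% lower, 7.15% higher). Its log2 fold change was -1.11 ± 0.34 (unadjusted p = 0.00669, adjusted p = 0.358 by edgeR). mt-Tq was 2.65, 9.15 and 9.21 CPM after saline and 4.09, 2.09 and 3.98 CPM after doxorubicin, and the groups overlapped. Its change was -1.05 ± 0.44 (unadjusted p = 0.0347, adjusted p = 0.438 by edgeR). The counts depended on single mice: without A17fl/fl + NS replicate 1, 11 members had an unadjusted p under 0.05 and 5 were within the limits of the study, where the shares of all genes were 10.2% and 1.77%. Without A17fl/fl + NS replicate 3 or without A17fl/fl + DOX replicate 2, 0 were within those limits, and in the latter case 1 member had an unadjusted p under 0.05. Of all genes, 5.86% and 2.65% were within those limits in these fits, and 6.33% had such a p in the latter. The rRNAs gave -0.62 ± 0.32 for mt-Rnr2 and -0.32 ± 0.27 for mt-Rnr1, with unadjusted p = 0.0736 and 0.267 by edgeR.

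After doxorubicin in A17α-MHCKO mice, again no member had an adjusted p under 0.05 by edgeR, as for all genes tested (0%), and mt-Rnr1 alone had an unadjusted p under 0.05, where 6.42% of all genes had it (2.44% lower, 3.97% higher). DESeq2 also gave 0 members with an adjusted p under 0.05 and 1 with an unadjusted p under 0.05, where 41 and 1136 of 16101 genes had them. No member was within the limits of the study, which 0.915% of genes met. Of the 13 mRNAs, 11 had positive log2 fold changes, from -0.12 for mt-Nd2 to 0.30 for mt-Nd6 with a median of 0.11, and the median over all genes tested was 0.00. mt-Rnr1 was 2902, 1529 and 1997 CPM in A17α-MHCKO + NS mice and 1309, 1306 and 1453 CPM in A17α-MHCKO + DOX mice, without overlap. It had a log2 fold change of -0.66 ± 0.27 (unadjusted p = 0.0341, adjusted p = 0.756 by edgeR). mt-Rnr2 was 6060, 3356 and 4485 CPM after saline and 2793, 3417 and 3067 CPM after doxorubicin, where replicate 2 of each group overlapped, and its change was -0.58 ± 0.32 (unadjusted p = 0.0909 by edgeR). mt-Ti was 50.1, 39.1 and 38.6 CPM after saline and 23.6, 31.7 and 28.0 CPM after doxorubicin, again lower without overlap, at -0.62 ± 0.33 (unadjusted p = 0.0906 by edgeR). These were the 2 members without overlap, where 16.9% of genes had none (7.79% lower, 9.16% higher). The unadjusted p of mt-Rnr1 was no longer under 0.05 without any 1 of the 3 A17α-MHCKO + DOX mice or without A17α-MHCKO + NS replicate 1. Without A17fl/fl + NS replicate 1 or 3 the count of members was 3, and without A17α-MHCKO + NS replicate 2 it was 2. With a library left out, the share of all genes with such a p lay between 3.22% and 11.5%.

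Set against the mRNAs of the same library, the rRNAs were lower after doxorubicin in both genotypes. rRNA counts per 100 mRNA counts were 2.57, 2.66 and 3.64 in A17fl/fl + NS mice and 2.35, 2.17 and 2.21 in A17fl/fl + DOX mice. They were 3.86, 2.63 and 3.64 in A17α-MHCKO + NS mice and 2.20, 2.09 and 2.12 in A17α-MHCKO + DOX mice. All 6 treated mice thus lay below all 6 saline mice, and the saline mice were spread more widely. This ratio combines members and has no test. Counts of AY036118 and Gm42418, which lie in cytoplasmic rRNA sequence, were 169 to 286 CPM in the 6 saline mice and 201 to 456 CPM in the 6 treated mice, and these ranges overlapped. The summed cardiomyocyte markers moved with treatment, from 21299 to 45213 CPM in the 6 saline mice to 47115 to 53643 CPM in the 6 treated mice, and their part in the rRNA values was not tested. Sums of other marker lists also differed without overlap after doxorubicin. In A17α-MHCKO mice the fibroblast sum was 1470 to 1644 CPM in place of 1829 to 2809 CPM after saline, and the red cell sum 1133 to 1267 CPM in place of 815 to 971 CPM. There the skeletal muscle sum was 2.99 to 3.7 CPM in place of 5.11 to 6.18 CPM, and the B cell sum 1.26 to 1.69 CPM in place of 1.73 to 2.56 CPM. In A17fl/fl mice the T and NK cell sum was 5.84 to 8.3 CPM in place of 0.115 to 3.95 CPM. No marker of the skeletal muscle, B cell or T and NK cell lists was above 1 CPM in every library. The atrial cardiomyocyte sum ranged from 332 to 8361 CPM over the 12 libraries. In A17α-MHCKO mice it was 3864 to 8361 CPM after saline (mean 6226 CPM) and 1803 to 3990 CPM after doxorubicin (mean 2532 CPM), with overlap. In A17fl/fl mice it was 332 to 7270 CPM and 1686 to 4786 CPM, also with overlap. The part of these sums in the rRNA values was not tested either.

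**Figure D3:**
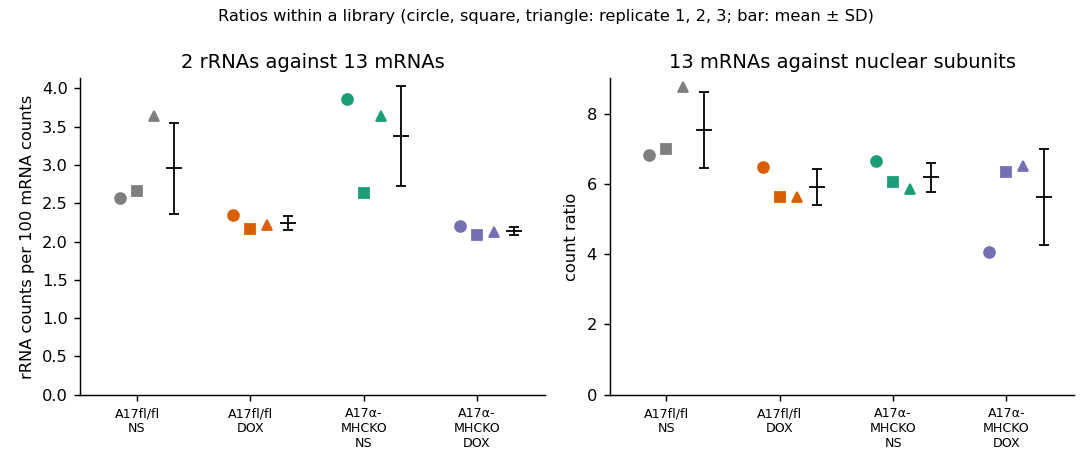
Left, counts of the 2 rRNAs per 100 counts of the 13 mRNAs; right, ratio of the 13-mRNA counts to the counts of nuclear-encoded subunits of the same 4 complexes, by group with 1 point per mouse and the mean ± SD of 3 mice. The rRNA values of the treated mice lie between 2.09 and 2.35, below the 2.57 to 3.86 of saline mice, and the mRNA to nuclear subunit ratio is highest in A17fl/fl + NS mice (6.83 to 8.77).

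Between the genotypes after saline, counts on 6 mitochondrial tRNA genes were lower in A17α-MHCKO mice at an unadjusted p. Most of these calls rested on 1 saline mouse of the A17fl/fl group. Such counts do not tell cut-out tRNAs from precursor RNAs. Of 19 tested tRNAs, 6 had an unadjusted p under 0.05, all lower, and 4 of them were within the limits of the study, while no mRNA or rRNA had such a p. Over the 34 members 17.6% had an unadjusted p under 0.05, where 10.1% of all genes tested had it (6.53% lower, 3.61% higher). For the limits of the study the shares were 11.8% of members and 4.07% of genes. No member had an adjusted p under 0.05 by edgeR, which 0.0186% of genes had, and the smallest was 0.313. By DESeq2 0 members had an adjusted p under 0.05 and 7 an unadjusted p under 0.05, where 174 and 1705 of 16101 genes had them. The smallest adjusted p of a member was 0.0569 by DESeq2. The median log2 fold change was -0.56 for the tRNAs, -0.17 for the mRNAs and -0.03 for all genes tested.

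The 6 were the tRNAs for aspartate (mt-Td), valine (mt-Tv), lysine (mt-Tk), glycine (mt-Tg), arginine (mt-Tr) and methionine (mt-Tm). mt-Td was 1.10, 1.85 and 6.70 CPM in A17fl/fl + NS mice, which is 19, 31 and 107 counts, and 0.803, 0.993 and 0.581 CPM in A17α-MHCKO + NS mice, which is 13, 23 and 10 counts. The groups did not overlap, replicate 3 of the former was far above the rest, and the log2 fold change was -2.0 ± 0.60 (unadjusted p = 0.00675, adjusted p = 0.323 by edgeR). mt-Tv was 1.90, 2.57 and 7.52 CPM in A17fl/fl + NS mice, compared with 1.23, 1.12 and 1.16 CPM in A17α-MHCKO + NS mice, also without overlap, at -1.76 ± 0.48 (unadjusted p = 0.00359, adjusted p = 0.313 by edgeR). These 2 members were those without overlap, where 10.9% of genes had none (5.34% lower, 5.52% higher). mt-Tk and mt-Tg changed by -1.20 ± 0.41 and -1.04 ± 0.42, and mt-Tr and mt-Tm by -0.98 ± 0.34 and -0.98 ± 0.40. Neither rRNA had an unadjusted p under 0.05, with mt-Rnr1 at 0.35 ± 0.27 and mt-Rnr2 at -0.07 ± 0.31.

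A17fl/fl + NS replicate 3 had the highest CPM of these 6 tRNAs among all 12 libraries, as well as the highest mitochondrial share. Without it, 2 members had an unadjusted p under 0.05, mt-Tv at -0.93 and mt-Rnr1 at 0.72, and 0 were within the limits of the study, where the shares of all genes were 14.9% and 6.07%. Without A17fl/fl + NS replicate 1, the library that stood apart, 18 members had an unadjusted p under 0.05 and 7 were within the limits, all 18 lower in A17α-MHCKO mice and 6 of them mRNAs. The shares of all genes were then 10.2% and 2.19%. Among those mRNAs, mt-Nd2, mt-Nd4 and mt-Nd5 of complex I changed by -0.54, -0.49 and -0.56, and the smallest adjusted p over the members was then 0.0959 by edgeR. Without A17α-MHCKO + NS replicate 3 the first count was 3 (7.05% of all genes), and without replicate 1 of that group 6 members were within the limits (3.57% of genes). The skeletal muscle marker sum was 5.11 to 6.18 CPM in A17α-MHCKO + NS mice and 2.25 to 3.41 CPM in A17fl/fl + NS mice, without overlap, and its part in these values was not tested.

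**Figure D4:**
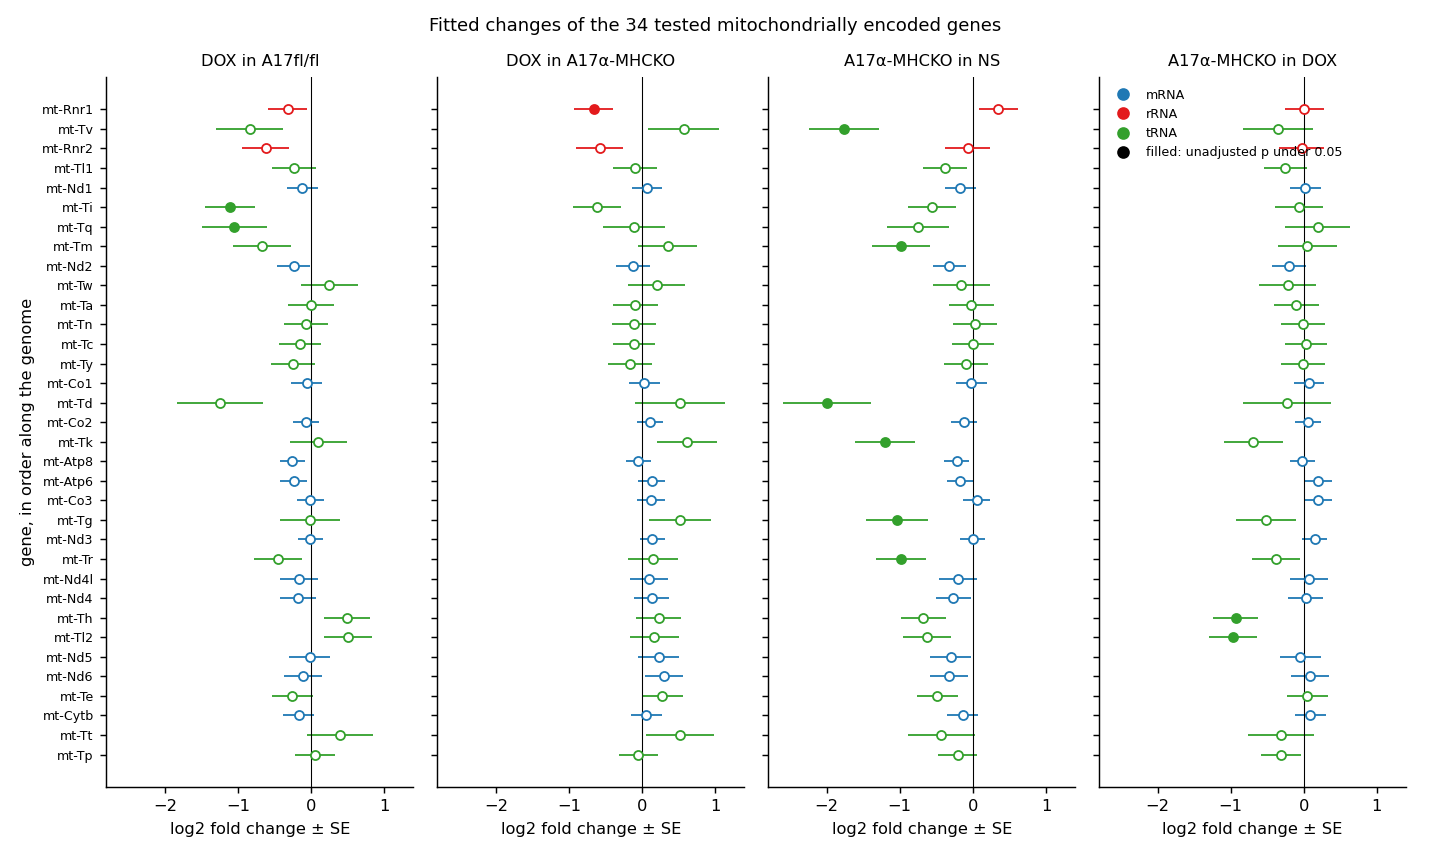
Fitted log2 fold changes with their approximate SE for the 34 tested members in 4 contrasts, in the order of the genes along the mitochondrial genome, with blue for mRNAs, red for rRNAs, green for tRNAs and filled points for an unadjusted p under 0.05. The mRNAs lie between -0.32 and 0.30 in all 4 contrasts, and 6 tRNAs are filled and low between the genotypes after saline, with mt-Td lowest at -2.0.

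Between the genotypes after doxorubicin, counts on 2 tRNA genes with 1 gene between them were lower in A17α-MHCKO mice at an unadjusted p, and those of no mRNA were. mRNA log2 fold changes ran from -0.20 for mt-Nd2 to 0.20 for mt-Atp6, with a median of 0.07 beside 0.01 over all genes tested. By edgeR 0 members had an adjusted p under 0.05 (0.00621% of all genes had) and 0 were within the limits of the study (0.288% of genes were). An unadjusted p under 0.05 occurred in 2 members, both lower, where 2.7% of genes had it (1.19% lower, 1.52% higher). DESeq2 gave 2 as well, where 483 of 16101 genes had such a p. The groups did not overlap for 5 members, where 14.1% of genes had none (7.13% lower, 6.96% higher), namely lower for mt-Th, mt-Tk and mt-Tg and higher for mt-Co3 and mt-Nd3.

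The 2 tRNAs were mt-Th for histidine and mt-Tl2 for leucine. They flank mt-Ts2 for serine between mt-Nd4 and mt-Nd5, and the 3 genes are printed because they follow each other without a gap (GRCm38 chrM:11546-11612, chrM:11613-11671 and chrM:11671-11741, plus strand), with the 1 base that mt-Ts2 and mt-Tl2 share in capitals.
mt-Th: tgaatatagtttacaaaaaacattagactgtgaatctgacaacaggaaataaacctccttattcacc
mt-Ts2: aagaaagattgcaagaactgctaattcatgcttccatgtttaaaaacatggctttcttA
mt-Tl2: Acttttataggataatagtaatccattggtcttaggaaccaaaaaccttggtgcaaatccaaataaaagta
mt-Th was 14.0, 18.2 and 21.1 CPM in A17fl/fl + DOX mice and 5.98, 13.8 and 8.14 CPM in A17α-MHCKO + DOX mice, without overlap by a margin of 13.8 against 14.0 CPM. Its log2 fold change was -0.93 ± 0.31 (unadjusted p = 0.0122, adjusted p = 1.0 by edgeR). mt-Tl2 was 27.0, 37.1 and 44.3 CPM in A17fl/fl + DOX mice and 11.3, 28.3 and 15.9 CPM in A17α-MHCKO + DOX mice, where replicate 2 of the latter lay above replicate 1 of the former. Its log2 fold change was -0.97 ± 0.33 (unadjusted p = 0.0138, adjusted p = 1.0 by edgeR). Between them, mt-Ts2 was listed at 1 count in 11 libraries and at 175 counts in A17α-MHCKO + NS replicate 1, a library in which its neighbours held 119 and 242 counts. In A17fl/fl mice the same genes gave 0.49 for mt-Th and 0.50 for mt-Tl2 after doxorubicin, with groups that overlapped.

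mt-Nd4, the mRNA next to mt-Th, had no unadjusted p under 0.05. mt-Th counts per 1000 mt-Nd4 counts were 0.874, 1.3 and 1.48 in A17fl/fl + DOX mice and 0.494, 0.832 and 0.491 in A17α-MHCKO + DOX mice, without overlap, while the log2 fold change of mt-Nd4 itself was 0.03 ± 0.24. This ratio holds the same mt-Th counts as the CPM above, so its separation is not a further result. The same ratio for mt-Tl2 was 1.69, 2.65 and 3.11 in A17fl/fl + DOX mice and 0.93, 1.7 and 0.961 in A17α-MHCKO + DOX mice, with overlap. Without A17α-MHCKO + DOX replicate 1, 0 members had an unadjusted p under 0.05, without A17fl/fl + DOX replicate 3 or A17α-MHCKO + DOX replicate 3 it was 1, and without A17α-MHCKO + DOX replicate 2 or A17fl/fl + NS replicate 3 it was 3. Without A17α-MHCKO + DOX replicate 2 or A17fl/fl + DOX replicate 1, 2 members were within the limits of the study. With a library left out, between 1.3% and 5.85% of all genes had such a p and between 0.236% and 0.523% were within the limits. The fibroblast marker sum was 1470 to 1644 CPM in A17α-MHCKO + DOX mice and 1705 to 1795 CPM in A17fl/fl + DOX mice, without overlap, and its part in these values was not tested.

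**Figure D5:**
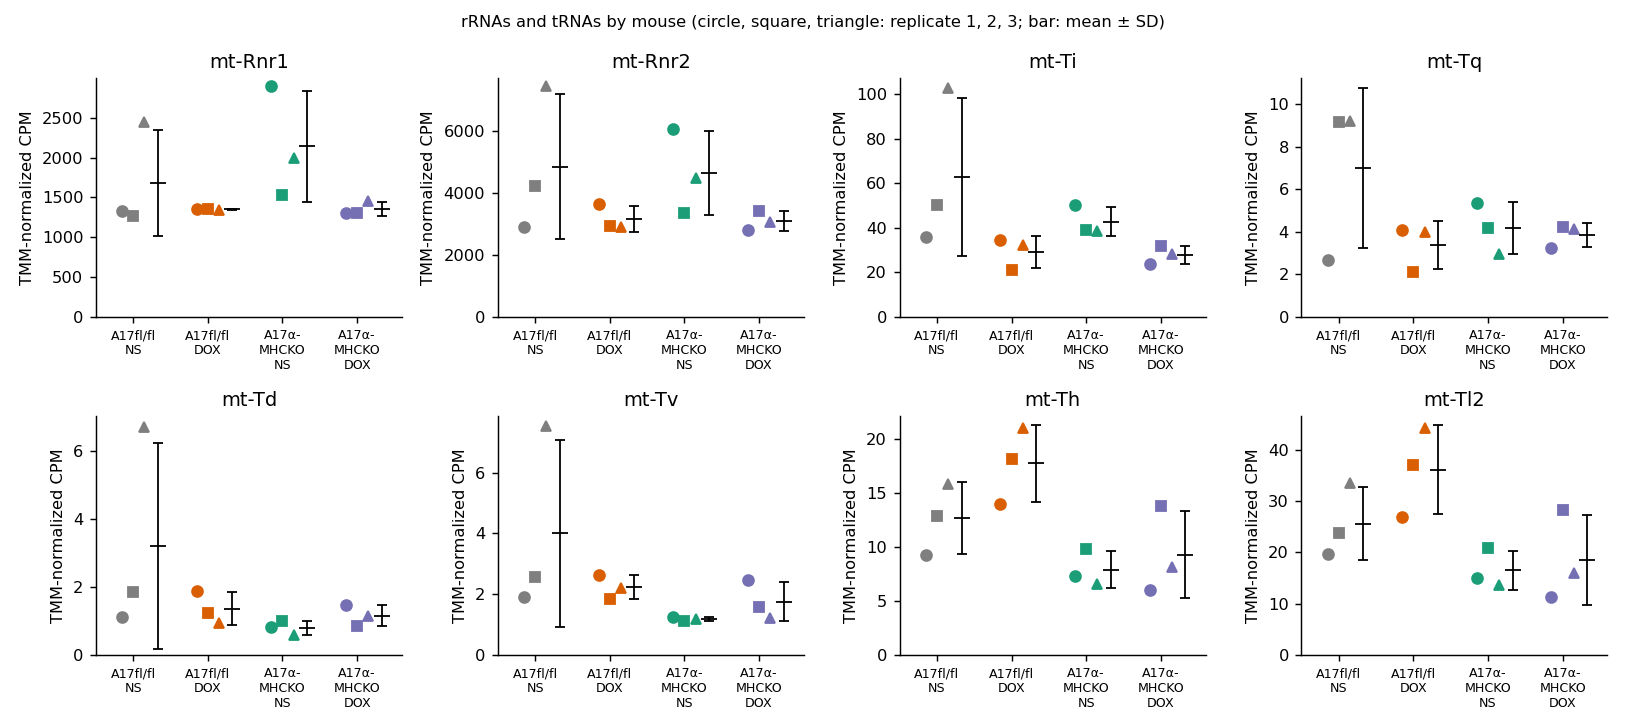
TMM-normalized CPM of both rRNAs and of 6 tRNAs by group, with circle, square and triangle for replicates 1, 2 and 3 and the mean ± SD of 3 mice. A17fl/fl + NS replicate 3 is high for mt-Rnr2 (7461 CPM), mt-Ti (103 CPM), mt-Td (6.70 CPM) and mt-Tv (7.52 CPM), and mt-Th and mt-Tl2 are highest in A17fl/fl + DOX mice.

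Of the 5 tRNA genes with most counts, mt-Te for glutamate had 163 to 385 CPM, followed by mt-Tc for cysteine, mt-Tn for asparagine, mt-Tl1 for leucine and mt-Ty for tyrosine, and none of these 5 had an unadjusted p under 0.05 in any contrast by edgeR in the fit of all 12 libraries. When A17fl/fl + NS replicate 1 was left out, mt-Te had an unadjusted p of 0.047 with doxorubicin in A17fl/fl mice, 0.00745 between the genotypes after saline and 0.0264 for the interaction, and mt-Tl1 one of 0.0384 between the genotypes after saline. The 8 tRNAs encoded on the strand of mt-Nd6 took 67.0% to 78.3% of tRNA counts, against the rest on the other 14. Their share was 67.0% to 74.1% in the 6 A17fl/fl libraries and 71.2% to 78.3% in the 6 A17α-MHCKO libraries, and these overlapped.

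Whether doxorubicin acted differently in the genotypes was tested by the interaction, and 0 members had an unadjusted p under 0.05 by edgeR, where 5.99% of genes had (2.49% lower, 3.5% higher). DESeq2 gave 0 as well, where 1032 of 16101 genes had such a p. The limits of the study were met by 0 members and 2.86% of genes. All 13 mRNAs had positive interaction values, from 0.09 for mt-Co1 to 0.41 for mt-Nd6 with a median of 0.20, beside 0.06 over all genes tested, and these genes of 1 genome are not independent. mt-Tv and mt-Td had the smallest unadjusted p among members, at 0.0589 and 0.0609 by edgeR. Without A17fl/fl + NS replicate 1, 7 members had an unadjusted p under 0.05 and 4 were within the limits, and without replicate 2 of that group both counts were 2. Without A17fl/fl + DOX replicate 1 or A17α-MHCKO + DOX replicate 3 both counts were 1, and without A17fl/fl + NS replicate 3 the first was 1. The shares of all genes were 7.13% and 2.37% without A17fl/fl + NS replicate 1, and 14.3% and 7.81% without replicate 2. Over all fits with a library left out they lay between 4.04% and 14.3% and between 1.87% and 7.81%.

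The nuclear-encoded partners of the mRNAs had mostly positive values after doxorubicin and also between the genotypes, and some were higher at an unadjusted p. Of 79 tested nuclear subunits of complexes I to V, 13 were higher at an unadjusted p under 0.05 and 0 lower in A17fl/fl mice (16.5%, where 10.7% of all genes had such a p), with a median log2 fold change of 0.27. In A17α-MHCKO mice the count was 15 higher with 0 lower (19.0%, where 6.42% of all genes had such a p), with a median of 0.27. By direction, 4.11% of all genes were higher in A17fl/fl mice and 3.97% in A17α-MHCKO mice. None of the 79 had an adjusted p under 0.05 in either comparison by edgeR. In A17α-MHCKO against A17fl/fl mice after saline, 69 of 79 were positive with a median of 0.20, and 9 were higher and 0 lower (11.4%, against 10.1% of all genes). After doxorubicin 72 were positive with a median of 0.19, and 4 were higher and 0 lower (5.06%, against 2.7% of all genes). With any 1 library left out these 2 counts of higher subunits ran from 1 to 16 and from 1 to 22. The shares of all genes with such a p then ran from 7.05% to 20.1% and from 1.3% to 5.85%. The counts rested on single mice. In A17fl/fl mice 13 became 10 without A17fl/fl + NS replicate 1, with a median of 0.21, and between 5 and 30 with any 1 library left out, the lowest without A17fl/fl + DOX replicate 3 and the highest without A17α-MHCKO + DOX replicate 1. Of all genes 10.2%, 6.37% and 10.3% had such a p in the fits named here, in the same order. In A17α-MHCKO mice 15 became 5, with 1 lower and a median of 0.10, without A17α-MHCKO + DOX replicate 1 (3.22% of all genes had such a p there). The count was 34 without replicate 3 of that group (7.04% of all genes). It was 9 and 8 without replicates 2 and 3 of A17α-MHCKO + NS (6.18% and 3.29% of all genes). Complex I, which receives 7 mitochondrial subunits, had 8 of 37 nuclear subunits higher in A17fl/fl mice and 9 of 37 in A17α-MHCKO mice, among them Ndufa8 at 0.43 and 0.51. The former count was 5 without A17fl/fl + NS replicate 1, and the latter was 3 without A17α-MHCKO + DOX replicate 1. Cox8b, a muscle subunit of complex IV, was within the limits of the study between the genotypes after doxorubicin, at 559, 391 and 344 CPM with knockout against 238, 172 and 205 CPM in A17fl/fl + DOX mice (log2 fold change 1.07 ± 0.27, unadjusted p = 0.0021, adjusted p = 1.0 by edgeR). Without A17α-MHCKO + DOX replicate 1, the highest of these mice, Cox8b gave 0.84 ± 0.27 (unadjusted p = 0.0119 by edgeR).

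The count ratio of the 13 mRNAs to nuclear subunits of the same 4 complexes was 6.83, 6.99 and 8.77 in A17fl/fl + NS mice and 6.49, 5.62 and 5.62 in A17fl/fl + DOX mice, lower without overlap. It was 6.65, 6.07 and 5.85 in A17α-MHCKO + NS mice, also below A17fl/fl + NS mice, and 4.06, 6.35 and 6.50 in A17α-MHCKO + DOX mice, which overlapped with A17α-MHCKO + NS and A17fl/fl + DOX mice. Every A17fl/fl + NS mouse thus lay above all mice of the other groups. With nuclear copies counted as mitochondrial, it was 9.14 to 11.4 in A17fl/fl + NS mice and 7.35 to 8.54 in A17fl/fl + DOX mice, again without overlap. For complex V alone it was 0.377, 0.331 and 0.391 in A17fl/fl + NS mice and 0.296, 0.232 and 0.230 in A17fl/fl + DOX mice, without overlap, and with copies 1.38 to 1.64 and 0.991 to 1.24. Complex III was also lower without overlap, at 4.08 to 4.79 after doxorubicin and 5.48 to 7.01 after saline. Complex I, at 6.24 to 7.42 and 7.17 to 10.8, and complex IV, at 17.6 to 22.2 and 20.1 to 26.7, overlapped between the same groups. Between the genotypes after saline, complexes I, III and V were lower in A17α-MHCKO mice without overlap and complex IV overlapped. In the other comparisons all 4 complexes overlapped, and adding copies changed none of these statements. The mRNAs took 17.4% to 24.9% of all counts in A17fl/fl + NS mice and 19.3% to 21.2% in A17fl/fl + DOX mice, with overlap, while the nuclear subunits took 2.54% to 2.96% and 3.26% to 3.51%, without overlap. In A17α-MHCKO mice the nuclear subunits took 3.26% to 3.34% after saline and 4.45%, 3.43% and 3.25% after doxorubicin, with overlap and replicate 1 highest. After doxorubicin the summed cardiomyocyte markers given above were also higher in both genotypes. Between the genotypes after saline they overlapped, at 32225 to 40625 CPM in A17α-MHCKO + NS mice and 21299 to 45213 CPM in A17fl/fl + NS mice. Their part in these ratios was not tested.

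Genes that keep and read the mitochondrial genome were listed as well. Of 37 tested genes of mitochondrial transcription and RNA processing, 5 were higher and 0 lower at an unadjusted p under 0.05 after doxorubicin in A17fl/fl mice, and 4 higher with 0 lower in A17α-MHCKO mice, with 0 adjusted p under 0.05 by edgeR in either. Of all genes 4.11% were higher and 6.58% lower in A17fl/fl mice, and 3.97% higher and 2.44% lower in A17α-MHCKO mice. The 5 became 2 without A17fl/fl + NS replicate 1, and the 4 became 1 without A17α-MHCKO + DOX replicate 1. Polrmt, the mitochondrial RNA polymerase, was 18.8, 25.2 and 25.4 CPM in A17fl/fl + NS mice, compared with 29.8, 28.3 and 31.6 CPM in A17fl/fl + DOX mice (log2 fold change 0.37 ± 0.13, unadjusted p = 0.0178, adjusted p = 0.414 by edgeR). It gave 0.24 ± 0.11 without A17fl/fl + NS replicate 1, the lowest of these mice (unadjusted p = 0.0574 by edgeR). In A17α-MHCKO mice it gave -0.12 ± 0.13, and the interaction was -0.49 ± 0.19 (unadjusted p = 0.024, adjusted p = 0.828 by edgeR), or -0.36 ± 0.15 without that library (unadjusted p = 0.0354). Tfam, which packages mitochondrial DNA and starts its transcription, gave 0.26 ± 0.15 in A17fl/fl and 0.35 ± 0.15 in A17α-MHCKO mice, with unadjusted p = 0.121 and 0.0442 by edgeR. Without A17α-MHCKO + DOX replicate 1 the latter was 0.26 ± 0.16 (unadjusted p = 0.153), and without A17fl/fl + NS replicate 1 the former was 0.12 ± 0.14. The transcription factor Tfb2m, the mRNA-stabilizing proteins Lrpprc and Slirp, the DNA polymerase gene Polg and the helicase gene Twnk had no unadjusted p under 0.05 in any contrast with all 12 libraries.

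Of 20 genes of mitochondrial DNA upkeep, 2 were higher and 0 lower after doxorubicin in A17fl/fl mice, and 2 higher and 1 lower in A17α-MHCKO mice. The former became 1 without A17fl/fl + NS replicate 1. Of 15 mitochondrial ribosomal genes listed as partners of the rRNAs, 4 were higher and 0 lower at an unadjusted p under 0.05 in A17fl/fl mice, and 4 higher and 0 lower in A17α-MHCKO mice, while both rRNAs had negative values in these comparisons. The former 4 became 2 without A17fl/fl + NS replicate 1, and the latter 4 became 0 without A17α-MHCKO + DOX replicate 1. The shares of all genes given above for each direction are the background of these lists too. Of 13 regulators of mitochondrial biogenesis, 3 were higher and 0 lower after doxorubicin in A17fl/fl mice, with a median log2 fold change of 0.02. In A17α-MHCKO mice 1 was higher and 1 lower. With any 1 library left out the higher counts were 1 to 4 and 0 to 2. Among them Ppargc1b, a coactivator of respiratory genes, was 6.35, 14.9 and 9.33 CPM in A17fl/fl + NS mice, compared with 22.1, 20.9 and 19.3 CPM in A17fl/fl + DOX mice (log2 fold change 1.03 ± 0.26, unadjusted p = 0.00236, adjusted p = 0.334 by edgeR). Without replicate 1 of A17fl/fl + NS, the lowest of these mice, it gave 0.78 ± 0.21 (unadjusted p = 0.00385 by edgeR). In A17α-MHCKO mice Ppargc1b was 11.4, 16.7 and 15.7 CPM after saline and 13.3, 15.7 and 14.6 CPM after doxorubicin. The interaction of Ppargc1b was within the limits of the study, at -1.04 ± 0.37 (unadjusted p = 0.0168, adjusted p = 0.828 by edgeR). Its relative Ppargc1a gave 0.54 ± 0.46 in A17fl/fl mice and -0.45 ± 0.46 in A17α-MHCKO mice. Of 12 tested genes of the mitochondrial stress response, 0 were higher and 2 lower in A17fl/fl mice after doxorubicin, and 1 was higher and 2 lower between the genotypes after saline, where 3.61% of all genes were higher and 6.53% lower. The lower 2 after saline were Gdf15 and Asns, at 14.3 and 14.4 CPM in A17fl/fl + NS replicate 1 and at most 2.19 and 3.23 CPM in the other two mice of that group. Without that replicate 0 genes of the list were lower in either comparison, and Gdf15 and Asns gave -0.02 and -0.22 between the genotypes after saline.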

How the data were processed

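Left ventricular RNA of 12 mice was sequenced by the authors as stranded paired-end mRNA libraries, and StringTie counted fragments per gene. The authors deposited 1 table with 24 columns, an unnormalized count and an FPKM for each library. The deposited FPKM equal the count divided by gene length and by the library total, without TMM. Per the labels, processing notes name CASAVA 1.8, HISAT2, SAMtools 1.3.1, edgeR and the build GRCm39, and the strand setting was not given in the sources used here. All columns were matched to mice (0 left unused), and 0 genes lacked a name. Positions and sequences are from GENCODE M21 (GRCm38), whose identifiers equal those of all 37 members.

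Counts were tested in R 4.3.3 with edgeR 4.0.16 (filterByExpr, TMM, glmQLFit with 4 group means over 12 libraries, glmQLFTest, Benjamini-Hochberg adjustment over 16101 genes) in 5 contrasts, namely DOX against NS within each genotype, A17α-MHCKO against A17fl/fl within each treatment, and their interaction. Approximate SEs were obtained from the F statistic as the size of the log2 fold change over the root of F. The limits of the study required a mean FPKM above 1 in either group, an unadjusted p below 0.05 and a log2 fold change beyond 1 in size. Contrasts share groups. Shares and ratios over members were given no p. Intervals are Wilson 95% and cover counting error only. Total counts were 15950717 to 21725076 (median 16413855), and the common dispersion was 0.0842, so mice differed by more than counting error. Each library is 1 mouse. In a simulation of doxorubicin in A17fl/fl mice on 16101 genes, the test recovered 99% of 4-fold and 15% of 2-fold changes at an adjusted p under 0.05. Every simulated gene had the same dispersion, and the changed genes were drawn from those above the median level.

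Nuclear copies were found with BLAST+ 2.17.0 between M21 transcripts (identity at least 90%, aligned length at least 100 bases, mean count at least 100). Named genes are the 13 mRNAs, both rRNAs, the 5 tRNAs with most counts, tRNAs with an unadjusted p under 0.05, Adam17, genes of the nuclear lists within the limits of the study, and Tfam, Polrmt, Tfb2m, Lrpprc, Slirp, Polg and Twnk. Ndufa8, Ppargc1a, Ppargc1b, Gdf15, Asns, AY036118 and Gm42418 were named after their values were seen, and other tRNAs where a count of members needed them. Members and lists were chosen with earlier results of these data known. Alternatives were DESeq2 1.42.0, RLE, upper-quartile and total-count scaling, TMM without mitochondrial genes, other filters, the likelihood ratio test, fits of only the 2 groups, the replicate number as a block, and each library left out in turn. Adding nuclear copies to members and complexes, and leaving out libraries for the nuclear lists and genes, were chosen after seeing the data.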

Additional observations from a re-analysis of the deposited data

How the results depend on the processing

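Under 23 alternatives per gene, no member reached an adjusted p under 0.05 by any tool, and the 11 single-gene changes with an unadjusted p under 0.05 kept their sign. The smallest adjusted p was 0.0514 (mt-Tv between the genotypes after saline, without A17fl/fl + NS replicate 2), and 0.0569 by DESeq2. With doxorubicin in A17fl/fl mice, members within the limits of the study were 1 with the 2 groups alone and 1 with the replicate block, and 0 to 5 with a library left out. Genes within the limits were 235 of 15457 tested, 281 of 16101, and 1.77% to 8.04% in these fits. Here and below, counts within the limits are set over all genes tested, and percentages over those that met the FPKM limit. Members with an unadjusted p under 0.05 were 4 by DESeq2, 1 with the 2 groups alone, 1 with the replicate block, and 1 to 11 with a library left out. Genes with such a p were 1816 of 16101, 900 of 15457, 1497 of 16101, and 6.33% to 20.8% in the same order. With doxorubicin in A17α-MHCKO mice, 1 member was within the limits without a filter, and those with an unadjusted p under 0.05 were 3 by library totals alone, 2 without a filter, 3 with the 2 groups alone, and 0 to 3 with a library left out. Without a filter 127 of 30451 genes were within the limits. Of the members tested only in that fit, mt-Ts2 alone had distant group means in these mice. They were 3.63 ± 6.21 CPM (SD) after saline and 0.0629 CPM after doxorubicin, and the former rested on 1 library. Genes with such a p were 1084 of 16101, 1198 of 30451, 1667 of 15422, and 3.22% to 11.5% in the same order. Between the genotypes after saline, leaving out a library gave 0 to 7 within the limits and 2 to 18 with an unadjusted p under 0.05. The shares of all genes were then 2.19% to 8.57% and 7.05% to 20.1%. After doxorubicin, 1 member was within the limits by library totals alone and 1 with the replicate block (0 to 2 with a library left out), and 4 had an unadjusted p under 0.05 with the 2 groups alone (0 to 3 with a library left out). Genes within the limits were 34 and 33 of 16101 tested. With a library left out, 0.236% to 0.523% of genes that met the FPKM limit were within them. Those with such a p were 1104 of 15351 (1.3% to 5.85%). For the interaction, the likelihood ratio test gave 1 member within the limits and 1 with an unadjusted p under 0.05, and leaving out a library gave 0 to 4 and 0 to 7. The likelihood ratio test gave 439 and 927 of 16101 genes. With a library left out the shares of all genes were 1.87% to 7.81% and 4.04% to 14.3%.

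Leaving out a library moved the difference in the share of counts between -3.00 and 1.02 points (doxorubicin in A17fl/fl), -1.09 and 0.794 (doxorubicin in A17α-MHCKO), -2.44 and 1.57 (genotype after saline) and -0.533 and 1.35 (genotype after doxorubicin). The median log2 fold change of the 13 mRNAs then ran from -0.32 to 0.08, 0.02 to 0.22, -0.31 to 0.02 and -0.01 to 0.15. With the nuclear copies added, mt-Co1 made up 37.3% of the mRNA counts, in place of 41.8%, and 41.6% to 42.0% with a library left out. Replicate numbers do not pair the mice: deviations from group means correlated between -0.104 and 0.219 for the 18 pairs with the same number (median 0.00414) and between -0.265 and 0.322 for others. With 3 mice a group and a 2-fold recovery of 15%, changes below 2-fold in mRNAs were mostly not detectable, and low tRNA counts such as those of mt-Td limit precision further.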
